A study of Mus musculus with 5 samples.

Results

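The genes described here are 10 SOX transcription factors of neural progenitor cells, Sox1, Sox2, Sox3, Sox4, Sox5, Sox6, Sox9, Sox11, Sox12 and Sox21, among 21145 genes named on the array. They were chosen by symbol, through the RefSeq accession that each probe carries, and 15 probes matched them. The study measured total RNA of 3 mouse brain tumours labelled glioma and of 2 samples labelled normal brain, each taken at postnatal day 150 and run on an Agilent single-colour mouse expression array of its own. The tumours came from a model made by mosaic analysis with double markers (MADM), in which recombination between chromosomes during cell division leaves sparse mutant cells marked by colour. The labels name no mutated gene, strain, Cre driver, treatment or brain region for either group, and they leave unsaid whether each replicate is another animal. The p-values therefore cover only the spread between these particular samples. It may be technical between the normal brain samples and between gliomas 1 and 2, whereas glioma 3 differed from these in sex-linked transcripts.

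SOX proteins bind DNA in its minor groove through an HMG domain and usually act with a partner factor. The SOXB1 proteins SOX1, SOX2 and SOX3 keep neural progenitors undifferentiated, and SOX21 of the SOXB2 group counteracts them. The SOXC proteins SOX4, SOX11 and SOX12 act later, in cells that leave the progenitor state, whereas SOX9 of the SOXE group specifies glia and stays on in astrocytes. SOX5 and SOX6 of the SOXD group lack an activation domain of their own and delay the maturation of oligodendrocyte progenitors.

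A level below is the log2 processed signal of the gene's brightest probe minus the log2 of the array's 75th percentile signal, and a change is the mean level of glioma minus that of normal brain, ± its standard error from limma (n = 3 and n = 2). Levels of different probes cannot be compared with each other, so only differences between groups are set side by side. All 10 genes were well above background on all 5 arrays. Higher in glioma at an adjusted p under 0.05 were 7 of the 10, Sox2, Sox3, Sox4, Sox6, Sox9, Sox11 and Sox12, against 23.6% of all 16894 genes tested. Sox1 was lower, where 27.8% of all genes were, and Sox5 and Sox21 did not pass. Calls in either direction thus numbered 8 of 10, against 51.4% of all genes. Both called and changed at least 2-fold were 8 of the 10, against 35.6% of all genes. The groups did not overlap in 9 of the 10, all but Sox21, against 74.0% of all genes. The median change of the 10 was 1.57 and that of all genes tested was -0.05. In the unscaled value table of the authors the median change of all genes was 0.31, the same 7 genes were higher, and Sox1 no longer passed. Among all calls the share that was higher in glioma was 46.0%, or 63.8% in the unscaled table.

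**Figure D1:**
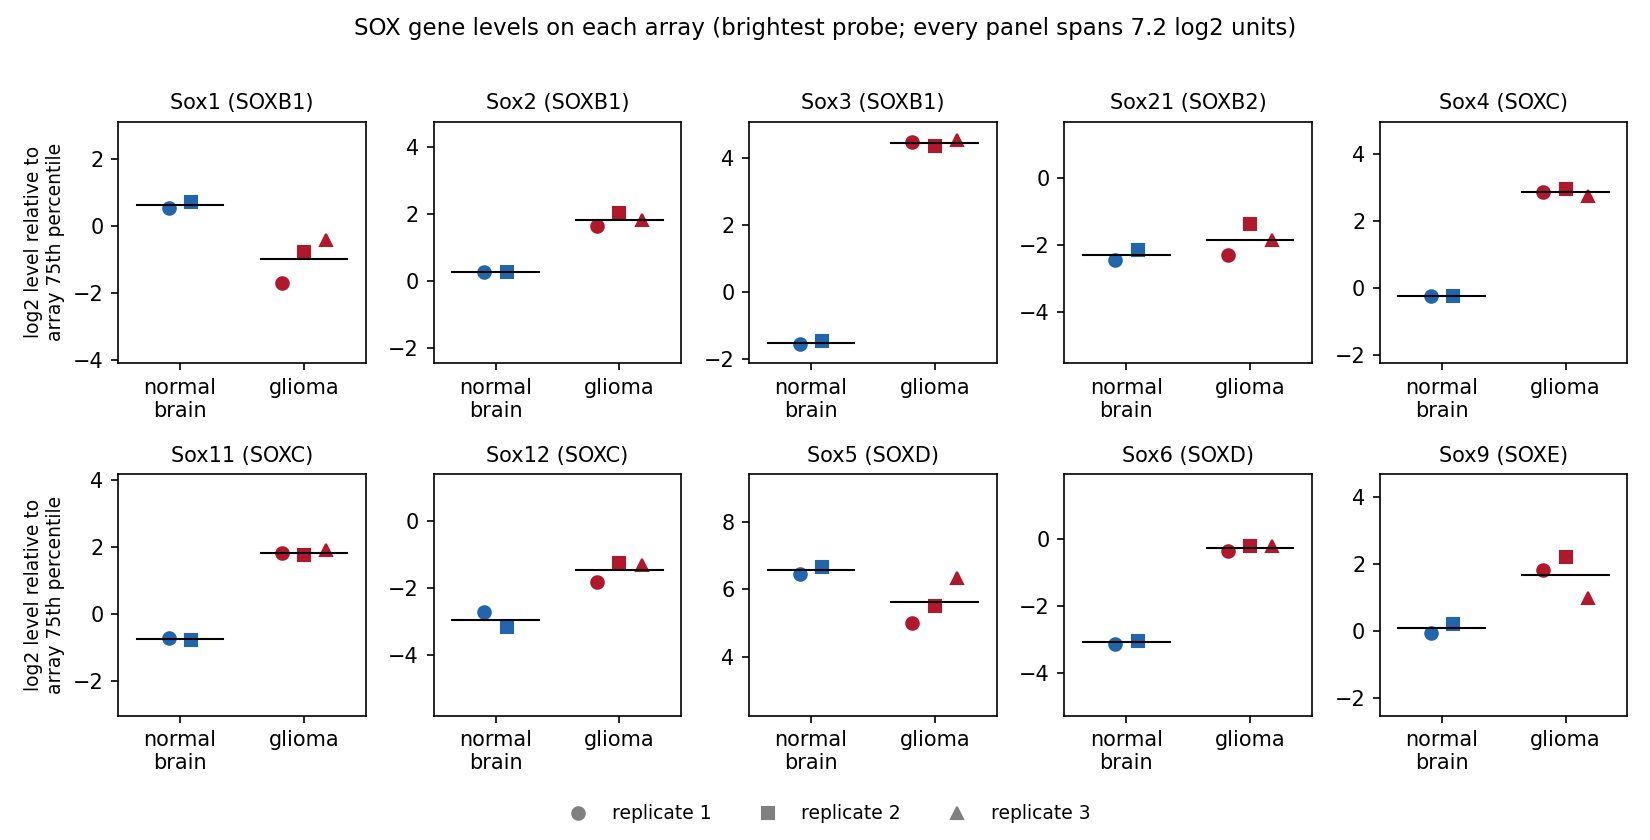
Log2 level of each SOX gene (vertical axis, relative to the array's 75th percentile signal) on the 2 normal brain arrays (blue) and the 3 glioma arrays (red), with 1 symbol per replicate number and a black line at the group mean. The groups are far apart for Sox3, Sox4, Sox6 and Sox11, and the glioma arrays are spread out for Sox1, Sox5 and Sox9.

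Signal over background stands for depth on arrays. Between 61.5% and 70.3% of the spots other than controls were well above background, and no such spot was saturated. The arrays shared a slide and a scan, but each group filled a row of its own, so row and group cannot be told apart. Glioma 3 was the only array with Xist, the RNA that silences an X chromosome in females, well above background, and the only one without Ddx3y and Eif2s3y of the Y chromosome. Markers of neurons, mature oligodendrocytes and endothelium were lower in glioma (5 of 5 in each list), and those of oligodendrocyte progenitors (4 of 4), dividing cells (4 of 4) and radial glia (4 of 5) were higher. All 3 ependymal and all 3 choroid plexus markers were lower, as were 3 of 5 immature neuron markers with 1 higher, and 1 of 5 microglial markers was higher. Of all genes tested, 27.8% were lower and 23.6% were higher, so the microglial count says little. In these bulk samples fewer cells of a type and less RNA per cell cannot be told apart.

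The sequence just before the start of 5 called genes is shown because Sox2, Sox4, Sox11 and Sox12 were higher together and Sox1, of the same subgroup as Sox2, was lower. Each has a single entry in the RefSeq promoter table (build GRCm38.p6), from which the 250 bases before the start are printed on the gene's own strand, 5′ to 3′, with the CCAAT motif, or its reverse ATTGG, in capitals.
Sox2, chr3:34649745-34649994, plus strand: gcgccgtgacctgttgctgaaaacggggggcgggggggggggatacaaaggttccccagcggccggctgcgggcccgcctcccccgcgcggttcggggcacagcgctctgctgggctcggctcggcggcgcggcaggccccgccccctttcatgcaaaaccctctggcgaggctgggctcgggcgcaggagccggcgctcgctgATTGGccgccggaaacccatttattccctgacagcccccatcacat
Sox4, chr13:28953700-28953949, minus strand: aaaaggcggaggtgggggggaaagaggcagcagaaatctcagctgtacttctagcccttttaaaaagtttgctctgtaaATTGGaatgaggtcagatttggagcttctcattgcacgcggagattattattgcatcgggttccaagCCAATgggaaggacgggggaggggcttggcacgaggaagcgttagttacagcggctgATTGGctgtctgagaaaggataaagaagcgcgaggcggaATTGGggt
Sox11, chr12:27342719-27342968, minus strand: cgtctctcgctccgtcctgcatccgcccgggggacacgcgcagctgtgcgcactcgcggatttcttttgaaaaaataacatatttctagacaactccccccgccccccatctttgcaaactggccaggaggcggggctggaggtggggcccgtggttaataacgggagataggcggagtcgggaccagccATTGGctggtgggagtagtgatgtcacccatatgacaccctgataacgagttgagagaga
Sox12, chr2:152398047-152398296, minus strand: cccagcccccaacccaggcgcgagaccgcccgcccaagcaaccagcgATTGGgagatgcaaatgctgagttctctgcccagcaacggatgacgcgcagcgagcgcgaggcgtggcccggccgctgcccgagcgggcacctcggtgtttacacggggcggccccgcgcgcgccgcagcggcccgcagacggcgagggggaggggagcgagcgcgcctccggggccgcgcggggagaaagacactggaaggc
Sox1, chr8:12395269-12395518, plus strand: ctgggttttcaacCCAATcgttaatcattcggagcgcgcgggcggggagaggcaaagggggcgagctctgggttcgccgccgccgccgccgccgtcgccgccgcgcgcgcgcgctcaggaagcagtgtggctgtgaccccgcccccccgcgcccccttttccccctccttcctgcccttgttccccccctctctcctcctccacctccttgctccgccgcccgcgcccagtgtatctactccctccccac
Sox1, Sox2, Sox11 and Sox12 each held 1 CCAAT match in this window and Sox4 held 4. The motif was present in 33.8% of the 32851 windows of this length in the table. GGGCGG, or its reverse CCGCCC, occurred in all of these but Sox4, 2 times in Sox2 and Sox11 and 3 times in Sox1 and Sox12. It occurred in 32.7% of all windows. The windows of Sox1, Sox2, Sox11 and Sox12 were 71.2%, 72.0%, 58.0% and 74.4% G or C, and that of Sox4 50.8%. The median over all windows was 52.4%. A motif of only G and C is met more often in G- and C-rich windows, so these matches say little. ACAAT, a form of the core that SOX proteins bind, or its reverse ATTGT, was not among the letters of any of these 5 windows. It occurred in 27.7% of all windows. Other forms of the core were not searched, so the windows are not shown to lack SOX sites. No match overlapped a match of another motif in the printed windows. The 4 higher genes and the lower Sox1 were thus not separated by CCAAT, which all held. Of the others, Sox21 held none of the 3 motifs, Sox5 held 1 ACAAT match, and Sox6 has 6 windows in the table, 3 of which held ACAAT. Of the Sox6 windows, 1 also held 1 CCAAT match, another held 3, and yet another held 4 GGGCGG matches.

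Among the SOXB1 genes, Sox3 and Sox2 were higher in glioma and Sox1 was lower. Sox3, an X-linked gene of early neural and pituitary development, had log2 levels of 4.49, 4.35 and 4.53 on glioma arrays 1 to 3 and of -1.56 and -1.47 on normal brain arrays 1 and 2. The gliomas were all far above normal brain and lay within 0.17 of each other, including glioma 3, the array with Xist. Sox3 rose by 5.97 ± 0.14, a 62.9-fold difference (95% CI 49.2 to 80.3, adjusted p = 0.000333, limma with Benjamini-Hochberg adjustment), and ranked 53 among the rises of 16894 genes. Leaving out any 1 array left its change between 5.93 and 6.03.

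Sox2, which sustains neural stem cells, had levels of 1.65, 2.05 and 1.82 in glioma and 0.29 and 0.28 in normal brain. All gliomas were above both normal brain samples, by at least 1.36. The change was 1.56 ± 0.17, or 2.94-fold (95% CI 2.17 to 3.98, limma adjusted p = 0.00171). Sox2 is also abundant in astrocytes. Of 5 astrocyte markers, Gja1 and Slc1a2 were lower and the other 3 did not pass. Their summed linear level was 137 to 264 in glioma and 277 to 289 in normal brain, but most of that sum is Aldoc, whose groups overlapped. Their part in the Sox2 result was not tested.

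Sox1, a marker of the neural plate and of neural stem cells that also occurs in some neurons, had levels of -1.71, -0.80 and -0.43 in glioma and 0.52 and 0.72 in normal brain. Every glioma was below both normal brain samples, glioma 1 the furthest and glioma 3 the nearest. Sox1 fell by 1.6 ± 0.40, or 3.03-fold (95% CI 1.49 to 6.19, limma adjusted p = 0.0242). The call rests on several arrays: the adjusted p was 0.0562 without glioma replicate 2 (change -1.69), 0.0901 without normal brain replicate 1 (-1.70), 0.117 without normal brain replicate 2 (-1.50) and 0.0523 in the unscaled table of the authors (-1.24). Its dimmer probe went the same way, with -4.45, -4.39 and -3.93 in glioma and -3.62 and -3.50 in normal brain, a change of -0.69 ± 0.21 (adjusted p = 0.0404 in a limma fit over single probes, in which 51.4% of probes were called). Neuronal markers were lower on the same arrays, with a summed linear level of 25.4 to 36.2 in glioma and 258 to 265 in normal brain; their part in the Sox1 result was not tested.

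Sox1ot, a long non-coding RNA gene within which RefSeq places Sox1, was lower as well. Its brighter probe had levels of -3.85, -3.61 and -3.76 in glioma and -0.89 and -0.87 in normal brain, and fell by 2.86 ± 0.14 (limma adjusted p = 0.000399). The gliomas lay close together for Sox1ot, unlike for Sox1. Which exons the probes of these overlapping genes match is not known here.

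Sox21, the SOXB2 gene, had levels of -2.30, -1.38 and -1.86 in glioma and -2.46 and -2.17 in normal brain. Glioma 1 lay between the normal brain samples and glioma 2 stood highest. The change of 0.47 ± 0.30 did not pass (95% CI -0.31 to 1.24, limma adjusted p = 0.251). On its other probe, with -2.26, -2.09 and -1.86 in glioma and -2.0 and -2.19 in normal brain, the change was 0.02 ± 0.18 (adjusted p = 0.923 in the fit over single probes). The interval leaves room for a rise of up to 2.37-fold, so equal levels are not shown.

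All 3 SOXC genes rose. Sox4, which promotes survival and differentiation of newly formed neural cells, had levels of 2.86, 2.96 and 2.75 in glioma and -0.24 and -0.24 in normal brain. Glioma and normal brain were each tightly grouped, with a gap of 2.98 between them. Its rise of 3.09 ± 0.14 (8.54-fold, 95% CI 6.67 to 10.9, limma adjusted p = 0.000367) matched that of its other probe, which had 0.15, 0.37 and -0.38 in glioma and -2.95 and -3.15 in normal brain and a change of 3.1 ± 0.26.

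Sox11, needed in newborn neurons and low in most of the adult brain, had levels of 1.82, 1.78 and 1.91 in glioma and -0.69 and -0.75 in normal brain. The gliomas differed by only 0.13 among themselves. Sox11 rose by 2.56 ± 0.13 (5.88-fold, 95% CI 4.66 to 7.43, limma adjusted p = 0.000401), and its other probe, at 1.14, 1.32 and 1.28 against -0.86 and -0.91, by 2.13 ± 0.14.

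Sox12, the least studied SOXC gene, had levels of -1.82, -1.24 and -1.30 in glioma and -2.71 and -3.15 in normal brain. The groups were 0.89 apart at their nearest arrays. The change was 1.48 ± 0.25 (2.79-fold, 95% CI 1.78 to 4.37, limma adjusted p = 0.00702), and it was 1.26 with an adjusted p of 0.0564 without normal brain replicate 2.

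**Figure D2:**
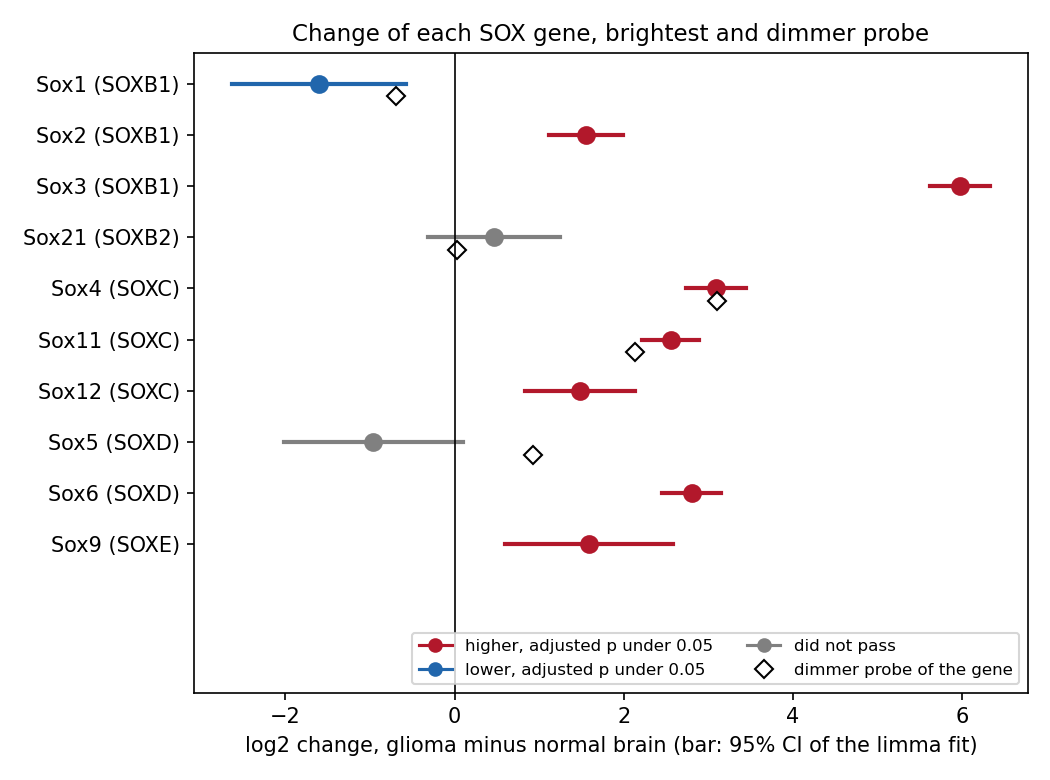
Log2 change of each SOX gene, glioma minus normal brain, on its brightest probe (filled circle, with the 95% confidence interval of the limma fit as a bar) and on its dimmer probe where it has 2 (open diamond). The probes of Sox4 and Sox11 lie together on the right, whereas those of Sox5 lie on opposite sides of 0, at -0.96 and 0.92.

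The SOXD genes Sox5 and Sox6 differed from each other. Sox6, with levels of -0.38, -0.23 and -0.23 in glioma and -3.13 and -3.04 in normal brain, showed compact groups far apart. It rose by 2.81 ± 0.14 (6.99-fold, 95% CI 5.49 to 8.89, limma adjusted p = 0.000391), and the change stayed between 2.76 and 2.85 without any 1 array. Corrected for background by normexp with an offset, the change was smaller, at 2.04, and still passed the test. Oligodendrocyte progenitor markers, among the cells in which Sox6 is known to act, moved with it on the same arrays: Pdgfra, Cspg4, Olig1 and Olig2 were all higher and none was below background in either group, with a summed linear level of 203 to 267 in glioma and 15.3 to 16.8 in normal brain. Their part in the Sox6 result was not tested.

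Sox5 gave opposite answers on its 2 probes. The bright probe had levels of 5.0, 5.50 and 6.34 in glioma and 6.47 and 6.68 in normal brain, so glioma 3 was only 0.13 below the nearer normal brain sample. Its change of -0.96 ± 0.41 did not pass (95% CI -2.01 to 0.09, limma adjusted p = 0.108). Without glioma replicate 3 it was -1.33 and passed (adjusted p = 0.0140). The dim probe had -4.85, -4.93 and -4.64 in glioma, well above background on all 3 arrays, and -5.72 and -5.74 in normal brain, where it was not well above background. Sox5 on this probe was at least 1.62-fold higher in glioma (measured means -4.81 and -5.73, adjusted p = 0.00602 in the fit over single probes). Such a bound sets each normal brain array at its lowest signal among probes well above background, or at the probe's own where higher. Both probes carry the same RefSeq accession, and which Sox5 transcripts each detects is not known here, so no direction is given for the gene.

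Sox9, the SOXE gene that turns progenitors toward glia, had levels of 1.82, 2.22 and 0.98 in glioma and -0.04 and 0.22 in normal brain. All gliomas were above normal brain, glioma 3 the least, by 0.76 over the nearer sample. Sox9 rose by 1.58 ± 0.39 (3.00-fold, 95% CI 1.51 to 5.97, limma adjusted p = 0.0223). It no longer passed without glioma replicate 1 (1.51, adjusted p = 0.0631), normal brain replicate 1 (1.45, adjusted p = 0.117) or normal brain replicate 2 (1.72, adjusted p = 0.0803). The marker lists differed in which glioma was lowest. In summed linear level, neuron, oligodendrocyte progenitor and endothelial markers were highest on glioma 3. Radial glia, dividing cell and choroid plexus markers were lowest on glioma 1, and immature neuron markers on glioma 2. The remaining lists were, like Sox9, lowest on glioma 3. On glioma arrays 1 to 3 the summed linear level of astrocyte markers, mostly Aldoc, was 264, 182 and 137. That of microglial markers was 61.0, 102 and 35.8, that of mature oligodendrocyte markers 52.4, 87.5 and 25.9, and that of ependymal markers 0.30, 0.72 and 0.20, each in the order of Sox9. Their part in the spread of Sox9 was not tested.

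The 10 genes thus differed in how alike the gliomas were. The SD among the 3 gliomas was 0.06 for Sox11, 0.08 for Sox6, 0.09 for Sox3 and 0.11 for Sox4, the 4 genes with the largest rises. It was 0.66 for Sox1, 0.68 for the bright probe of Sox5 and 0.63 for Sox9, and in each of these glioma 3 lay nearest to normal brain. Between the normal brain samples the SD was at most 0.31, in Sox12.

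Other SOX genes were called in both directions. Of 9 tested, 3 were higher, 1 was lower and 5 did not pass, where 23.6% of all genes were higher and 27.8% lower, so a count over so few genes says little about them. Their median change was -0.19. Sox10 and Sox8, the other SOXE genes, which drive the oligodendrocyte lineage, rose by 2.82 ± 0.14 and 2.08 ± 0.16 (limma adjusted p = 0.000401 and 0.000673). Sox14, a SOXB2 gene like Sox21, was not well above background in normal brain and was at least 1.59-fold higher in glioma (measured means -4.85 and -6.28, limma adjusted p = 0.0274). The endothelial gene Sox17 fell by 2.03 ± 0.13 (limma adjusted p = 0.000532), while Sox7 and Sox18, the others of its SOXF group, changed by -0.36 and -0.21 and did not pass. All 5 endothelial markers were lower too, with a summed linear level of 6.45 to 7.37 in glioma and 16.4 to 19.1 in normal brain; their part in the Sox17 result was not tested.

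Genes that act with SOX proteins were mostly higher or did not pass. Of 14 partner factors 8 were higher, none was lower and 6 did not pass, against 23.6% higher and 27.8% lower of all genes, with a median of 0.94. The largest rises were those of Olig2 (4.49 ± 0.17), a factor of the oligodendrocyte lineage, and of the POU factor Pou3f1 (2.96 ± 0.39). The POU factors Pou3f2 and Pou3f3, which bind beside SOX2, rose by 1.01 ± 0.19 and 1.31 ± 0.18. The other POU factors of the list did not pass. Pou2f1 changed by 0.42 ± 0.23 and Pou3f4 by -0.45 ± 0.61 (limma adjusted p = 0.182 and 0.568). Chd7, a chromatin remodeller that binds SOX2, rose by 2.68 ± 0.23. Pax6, a partner of SOX2 in the eye, changed by 0.10 ± 0.33 and did not pass (limma adjusted p = 0.816).

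Genes reported as targets were called in both directions. Of 18 reported SOXB1 and SOX9 targets of neural progenitors, 5 were higher, 2 were lower and 11 did not pass, with a median of 0.05. The higher ones were near the 23.6% of all genes, so this count says little about the targets. Fabp7 (5.09 ± 0.14) and Nes (3.70 ± 0.24), genes of radial glia with SOX-bound enhancers, led the rises, and Fgfr3 and Egfr, which encode growth factor receptors, fell by 1.53 ± 0.17 and 1.01 ± 0.18. All 8 reported SOXC targets were called, 2 higher and 6 lower, where 51.4% of all genes were called, with a median of -1.55. Dcx, a microtubule protein of migrating neuroblasts, and the Hippo pathway factor Tead2 rose by 1.93 ± 0.31 and 1.30 ± 0.37, whereas Stmn2 fell by 3.57 ± 0.29, Tubb3 by 1.87 ± 0.45, and Neurod1, not well above background in glioma, was at least 15.1-fold lower (limma adjusted p = 0.000441). The lower genes named here are also expressed in neurons, whose other markers were lower on the same arrays; their part was not tested. Of 6 myelin genes that SOX10 activates and the SOXD proteins restrain, 4 were lower and 2 did not pass, against 27.8% lower of all genes, with a median of -1.23. Mog, a protein of the outer myelin surface, fell by 2.52 ± 0.45 (limma adjusted p = 0.00771).

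**Figure D3:**
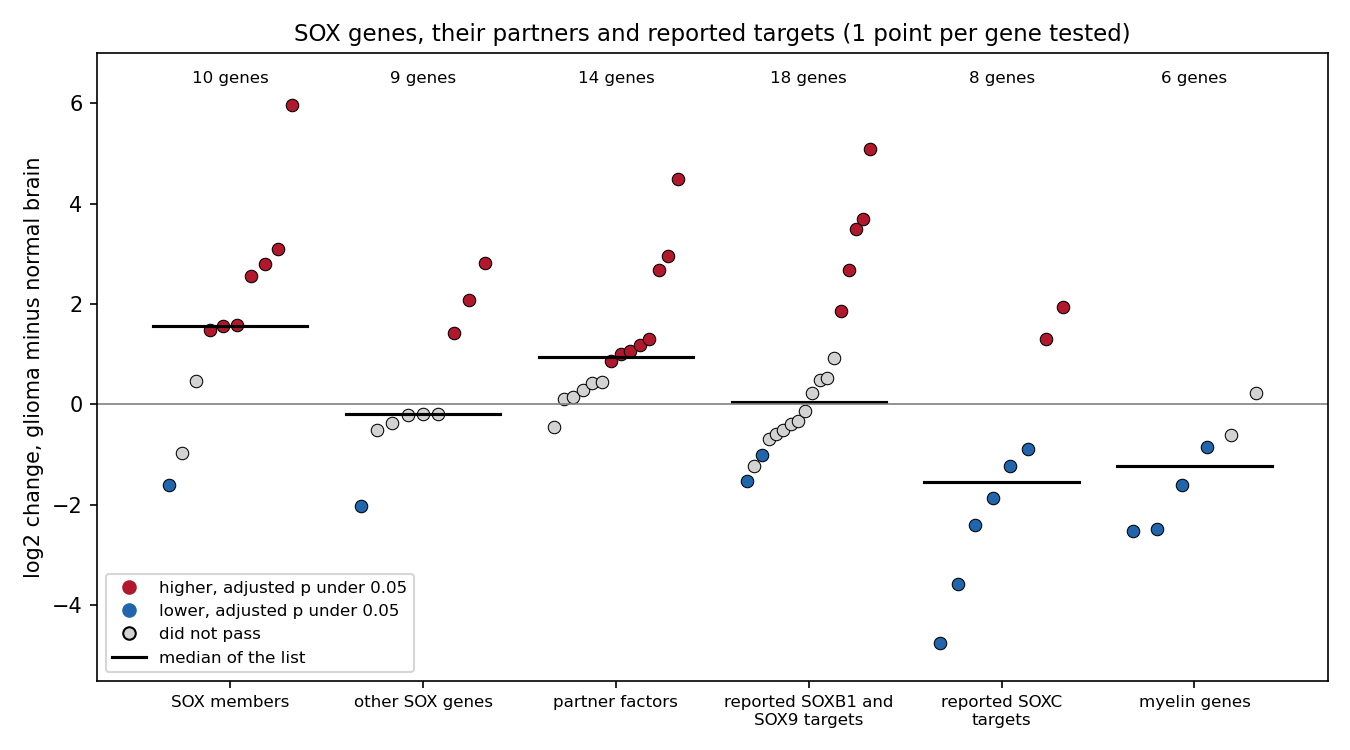
Log2 change, glioma minus normal brain (vertical axis), of every tested gene of 6 lists, 1 point per gene, coloured by whether it passed as higher (red) or lower (blue) or did not pass (grey), with the list median as a black line. The SOX members have 7 red points and a median of 1.57, whereas the reported SOXC targets have 2 red and 6 blue points.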

How the data were processed

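The deposited scanner files give the intensity of each spot and flags of 0 or 1. Per the submitters' processing notes, the authors made them with Agilent Feature Extraction, version 10.7.3.1. Per the file headers it subtracted background and detrended the signal, without scaling between arrays. The deposited value table of the authors is on a log2 scale and was checked to equal the log2 processed signal (median difference 0 on every array).

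Control spots and outlier spots were left out, spots of a probe were averaged, and log2 processed signal minus the log2 of the array's 75th percentile served as level. RefSeq accessions named 28013 of 55681 probes through the supplied table (assembly GRCm38.p6). The brightest probe stood for its gene, which was tested if that probe exceeded background clearly (Agilent's flag) on 2 or more arrays. Testing used lmFit and eBayes of limma 3.58.1 (R 4.3.3), two-sided, with Benjamini-Hochberg adjustment over 16894 genes and a threshold of 0.05. Summed marker levels add the linear scaled signals of a list.

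The members and gene lists were chosen with earlier results of these data known. All 10 members were named with every probe, and of each list the 2 largest called changes in each direction among genes detected on all arrays of at least 1 group; 1 gene that this rule names is not reported here. Chd7, Pou2f1, Pou3f2, Pou3f3, Pou3f4, Pax6, Tubb3, Sox7, Sox14, Sox18, Xist and the Y-linked genes were named after their values were seen. In a simulation, 200 of 16894 genes per run were given a change. Of the genes changed 2-fold, 8.3% passed the test, and of those changed 4-fold, 53.7% passed. Unchanged genes made up 3.06% of the calls. In the real data 51.4% of genes were called, so a smaller unadjusted p-value was needed to pass in the simulation. The simulated shares therefore do not give the power of the real fit. Normexp used the median spot signal, as the files hold no mean signal. RefSeq promoter entries matched 8 of the 10 members; Sox3 and Sox9 were not among them.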

Additional observations from a re-analysis of the deposited data

How the results depend on the processing

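Changes of single SOX genes were recomputed under other settings, 140 in all. Of these, 129 kept their direction and their side of the threshold. A further 8 kept the direction and no longer passed, 2 passed where they had not, and 1 turned. Dropping the filter on dim probes, or requiring all arrays well above background, could not alter any change, only its adjusted p. Genes with 1 probe likewise kept their change under the mean or the dimmest of detected probes. The 129 thus include entries that could not turn, and overstate how widely the changes were tried. The number of SOX genes higher in glioma was 7 under every setting that keeps all arrays except the dimmest detected probe, which gave 8, and 5 to 7 when any 1 array was left out. The number that were lower, 1, became 0 in the authors' unscaled table, where Sox1 changed by -1.24, and 0 to 2 when any 1 array was left out. Leaving out 1 array moved Sox1 between -1.88 and -1.23, Sox5 between -1.33 and -0.65, Sox9 between 1.31 and 1.93 and Sox12 between 1.26 and 1.70. With 1 normal brain array left, that array is assumed to vary like the gliomas. The dimmest detected probe, an alternative chosen after the data were seen, turned Sox5 to 0.92. The replicate numbers of the labels, used as a replicate block, gave 2 lower genes, as Sox5 then passed at -1.33. No other call changed. Only 1 array, glioma 3, has the number 3, so the block takes it out of the comparison. The changes therefore equal those without glioma replicate 3. The deviations of same-numbered arrays correlated at 0.04. As only 2 numbers are shared, this cannot show whether same-numbered samples were paired. Over all genes, 8687 were called and 4631 or 4642 without normal brain replicate 1 or 2. A block for slide or scan could not be fitted, as there is 1 of each. The number of arrays, and for the dim Sox5 probe its nearness to background, limit the precision.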
